A study of Mus musculus with 8 samples.

Results

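*Brd2*, *Brd3*, *Brdt* and *Brwd1* encode bromodomain proteins, the readers of acetylated lysines on histone tails. They were taken by symbol, as 3 genes of the BET (bromodomain and extra-terminal) family and the BRWD1 gene, out of 21058 genes in the deposited RNA-seq tables, and all 4 were listed and tested. The libraries came from pachytene spermatocytes, male germ cells midway through meiotic prophase, which were purified from adult testes by Sta-Put sedimentation at unit gravity. The *Arid1a* cKO group (n = 4 libraries) carried *Arid1a* fl/fl with *Stra8-Cre* Tg/0, a Cre transgene that is expressed in spermatogonia. The *Arid1a* WT group (n = 4) held *Arid1a* fl/fl or *Arid1a* fl/+ males without Cre, so floxed alleles were present in both groups, on a CD1 background. Testes of several adult males were pooled for a purification. *Stra8-Cre* activity is described in the study as inefficient, so the *Arid1a* cKO fractions held some spermatocytes that still made ARID1A. This protein is a putative DNA-binding subunit of the BAF chromatin remodeler. Fractions were pooled in the study when light microscopy showed mostly pachytene spermatocytes, so they could hold other cells. RNA levels of these pooled fractions are compared between the groups, gene by gene.

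BET proteins carry a pair of bromodomains and an extra-terminal domain, and they link acetylated chromatin to transcription, in part through the elongation kinase P-TEFb. *Brd2* and *Brd3* are expressed in most tissues. *Brdt* is the testis-specific BET gene, which is needed in meiotic prophase and, in spermatids, for the compaction of acetylated chromatin. BRWD1 joins bromodomains to WD repeats, and male mice that lack it are infertile. Its paralogs are *Phip* and *Brwd3*, and proteins of this family serve as substrate receptors of CUL4-DDB1 ubiquitin ligases.

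The promoters of 3 members are shown because *Brd2* and *Brd3* rose in *Arid1a* cKO spermatocytes while *Brdt* did not pass the test. Each sequence is from RefSeq (GRCm38.p6, the build of mm10) and runs 5′ to 3′ on the gene's strand. It runs from 250 bases before an annotated start to 50 bases after it, with capitals marking matches to the motifs named below. The *Brd2* and *Brdt* starts lie only a little inside the RefSeq spans of their genes. The 5′ ends of those spans, at 34122814 and 107331116, fall within the printed windows. The *Brd3* start lies much further inside, since the 5′ end of that span is at 27507657.
Brd2 (chr17:34122558-34122857, minus strand, the most upstream of its 3 starts): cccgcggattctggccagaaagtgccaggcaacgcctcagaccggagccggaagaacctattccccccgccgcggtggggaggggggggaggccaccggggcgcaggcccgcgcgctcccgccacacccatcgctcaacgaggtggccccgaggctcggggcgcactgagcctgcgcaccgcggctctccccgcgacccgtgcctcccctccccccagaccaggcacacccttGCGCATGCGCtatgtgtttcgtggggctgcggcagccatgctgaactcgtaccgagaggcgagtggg
Brd3 (chr2:27475349-27475648, minus strand, a start that lies inside the RefSeq span of the gene and not at its 5′ end): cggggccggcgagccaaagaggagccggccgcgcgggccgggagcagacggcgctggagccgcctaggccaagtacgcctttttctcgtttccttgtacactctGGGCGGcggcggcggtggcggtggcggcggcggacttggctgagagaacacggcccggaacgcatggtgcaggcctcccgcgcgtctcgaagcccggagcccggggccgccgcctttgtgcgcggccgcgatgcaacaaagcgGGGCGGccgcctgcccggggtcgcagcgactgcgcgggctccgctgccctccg
Brdt (chr5:107330944-107331243, plus strand): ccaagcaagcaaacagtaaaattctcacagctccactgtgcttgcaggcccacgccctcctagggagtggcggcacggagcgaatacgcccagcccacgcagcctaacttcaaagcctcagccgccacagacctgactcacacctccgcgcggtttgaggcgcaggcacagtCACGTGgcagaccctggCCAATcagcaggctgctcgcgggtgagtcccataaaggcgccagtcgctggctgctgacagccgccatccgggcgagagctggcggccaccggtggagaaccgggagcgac

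All 3 promoters were rich in G and C, at 72.3% for *Brd2*, 75% for *Brd3* and 64.7% for *Brdt*, with 32, 46 and 23 CpG dinucleotides. Motifs were searched on both strands, and the shares that follow are of 32851 promoter windows of the same length in the RefSeq table. The *Brd2* window held the NRF1 core GCATGCGC on both strands within a single 10-base stretch, and 2.71% of windows held that core. The windows of its other 2 starts, not printed here, held no NRF1 core and 1 GC box (GGGCGG, 35.7% of windows) each, and were 58.7% and 66% G and C. The *Brd3* window held 2 GC boxes. The *Brdt* window held 1 CCAAT box (CCAAT, 37.4%) and 1 E-box (CACGTG, 7.15%) and no GC box. No TATA box (TATAAA, 13.6%) or CRE (TGACGTCA, 1.79%) was found in these windows. The *Brwd1* window, not printed here, was 80% G and C with 3 GC boxes. These matches describe letters only, and no binding was measured here.

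Libraries held 18308688 to 22044507 estimated counts in *Arid1a* WT and 15850961 to 21626772 in *Arid1a* cKO. The targeted gene was examined first. *Arid1a* (chr4, 133679008 to 133756769) had 105, 128.5, 121 and 98.8 CPM (counts relative to the size of the library) in the 4 *Arid1a* WT libraries and 76.4, 81.0, 82.9 and 78.3 CPM in the *Arid1a* cKO libraries. Every *Arid1a* cKO library was below every *Arid1a* WT library, and the gene fell by 0.51 ± 0.07 (SE) on the log2 scale (edgeR, adjusted p = 2.31e-05). This count covers the whole gene, and the floxed exons were not counted apart. Of the marker lists for cells of the testis, all 15 spermatid markers were higher in *Arid1a* cKO, from a summed 2038–2252 CPM in *Arid1a* WT to 9573–9845 CPM. Pachytene markers were present throughout, with 8 of 12 lower and 3 higher (5011–5501 CPM against 3039–3146 CPM), and *Piwil1* (1597 to 109 CPM) made up much of the fall of the sum. The 9 Sertoli markers (570–643 against 175–183 CPM) and 6 of 7 Leydig markers (58.7–62.8 against 8.34–8.996 CPM) were lower. Of 9 leptotene and zygotene markers 5 were higher and 4 lower (387–405 against 599–642 CPM), of 11 spermatogonial markers 9 were higher and 1 lower (186–190 against 171–183 CPM, a sum carried down by *Id4*, 90.3 to 14.4 CPM), and of 9 macrophage and blood markers 7 were higher and 1 lower (5.99–7.32 against 14.2–17.0 CPM), with *Cd68* under 1 CPM in every library. The part of these cells in the values below was not tested. In bulk RNA, fewer cells of a type and less RNA per cell cannot be told apart.

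In *Arid1a* cKO spermatocytes *Brd2* rose 1.31-fold and *Brd3* rose 1.20-fold over *Arid1a* WT. *Brdt* and *Brwd1* did not pass the test. Thus 2 of 4 members were called, both higher, against 74% of all 17643 genes tested that were called either way, 36.5% higher and 37.5% lower. The same 2 members had groups that did not overlap, against 68.9% of all genes. The members' absolute changes were small beside those of other genes, since the median absolute log2 fold change over all genes was 0.76 and *Brd2*, the member with the largest change in counts, exceeded 27.1% of genes. Per length the change of *Brd3* was the larger, at 0.57 against 0.29 with offsets for transcript length. The median signed change of all genes was -0.02.

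*Brd2* (Entrez 14312, chr17, 34112019 to 34122814, minus strand) had 426, 431, 394 and 463 CPM in *Arid1a* WT (429 ± 28.2, SD, n = 4) and 535, 564, 573 and 572 CPM in *Arid1a* cKO (561 ± 17.5). All *Arid1a* cKO libraries were above all *Arid1a* WT libraries. The log2 fold change was 0.39 ± 0.05 (SE), with a 95% confidence interval of 0.27 to 0.51 (edgeR, adjusted p = 1.61e-05). BRD2 is a widely expressed BET protein that binds acetylated histones at active promoters. Its change was smaller per length, at 0.29 with offsets for transcript length (edgeR, adjusted p = 0.000223) and, in TPM (transcript abundance relative to length and library), 0.22 on the log2(TPM + 1) and log2(TPM + 0.1) scales (limma, adjusted p = 0.00487 and 0.00914). Its call was lost when each TPM column was rescaled to the same sum over the listed genes, with a log2 fold change of 0.07 (limma, adjusted p = 0.247, where the alternatives ranged from 3.71e-11 to 0.247). In the gene annotation *H2-DMa* lies over part of *Brd2* on the opposite strand, and 8.6% of the 31-base words of *Brd2* transcripts also occurred in other genes, chiefly *H2-DMa* and an antisense gene. How the counting used strand is not given in the sources used here, so reads shared by *Brd2* and these genes could not be told apart. *H2-DMa*, an antigen-processing gene, rose from 7.42 ± 0.647 to 18.7 ± 0.808 CPM, a value subject to the same assignment of reads. The part of the overlap in the rise of *Brd2* was not tested.

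*Brd3* (Entrez 67382, chr2, 27445576 to 27507657, minus strand) had 221, 215, 205 and 214 CPM in *Arid1a* WT (214 ± 6.77) and 261, 254, 264 and 249.7 CPM in *Arid1a* cKO (257 ± 6.42). The groups were fully apart. The log2 fold change was 0.27 ± 0.05 (SE), with an interval of 0.17 to 0.36 (edgeR, adjusted p = 9.35e-05). BRD3 is the BET protein known for binding acetylated GATA1 in blood cells. Its change was larger per length, at 0.57 with offsets for transcript length (edgeR, adjusted p = 5.98e-07) and 0.50 on the log2(TPM + 1) scale (limma, adjusted p = 2.28e-05), where adjusted p over the alternatives ranged from 1.33e-09 to 0.000784. Only 0.0671% of its 31-base words were shared with other genes.

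*Brdt* (Entrez 114642, chr5, 107331116 to 107387061, plus strand) had 397, 373, 340.4 and 389.5 CPM in *Arid1a* WT (375 ± 25.1). In *Arid1a* cKO it had 393, 360.1, 374 and 357 CPM (371 ± 16.2). All *Arid1a* cKO values lay within the *Arid1a* WT range. The log2 fold change was -0.02 ± 0.06 (SE), and its interval of -0.14 to 0.11 corresponds to 0.909-fold to 1.08-fold (edgeR, adjusted p = 0.812). An exact permutation test over the 70 assignments of libraries gave p = 0.857. The sign of this change depended on the scaling, from -0.12 on rescaled TPM (limma, adjusted p = 0.0967) and -0.11 without TMM factors (edgeR, adjusted p = 0.0177) to 0.10 with length offsets (adjusted p = 0.228). Over the alternatives the adjusted p of *Brdt* ranged from 0.0177 to 0.989. The log2 fold change was 0.01 without *Arid1a* WT replicate 1, 0.02 without *Arid1a* WT replicate 4, and 0.00 without *Arid1a* cKO replicate 4. The *Brdt* interval includes 0, which leaves room for changes within it in either direction.

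*Brwd1* (Entrez 93871, chr16, 95992089 to 96082703, minus strand) had 126, 142, 131 and 121 CPM in *Arid1a* WT (129.6 ± 8.95) and 136, 142, 145 and 136 CPM in *Arid1a* cKO (139.7 ± 4.39). All 4 *Arid1a* cKO libraries were above the *Arid1a* WT mean, but the groups overlapped at *Arid1a* WT replicate 2. The log2 fold change was 0.11 ± 0.05 (SE), with an interval of -0.01 to 0.23 (edgeR, adjusted p = 0.0879; exact permutation test, p = 0.114). Whether it passed depended on the setting, with 0.15 without *Arid1a* WT replicate 2 (adjusted p = 0.0171), 0.14 with TMM factors from autosomal genes (adjusted p = 0.0283) and 0.01 without TMM factors (adjusted p = 0.913). Over the alternatives the adjusted p ranged from 0.0171 to 0.913.

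**Figure D1:**
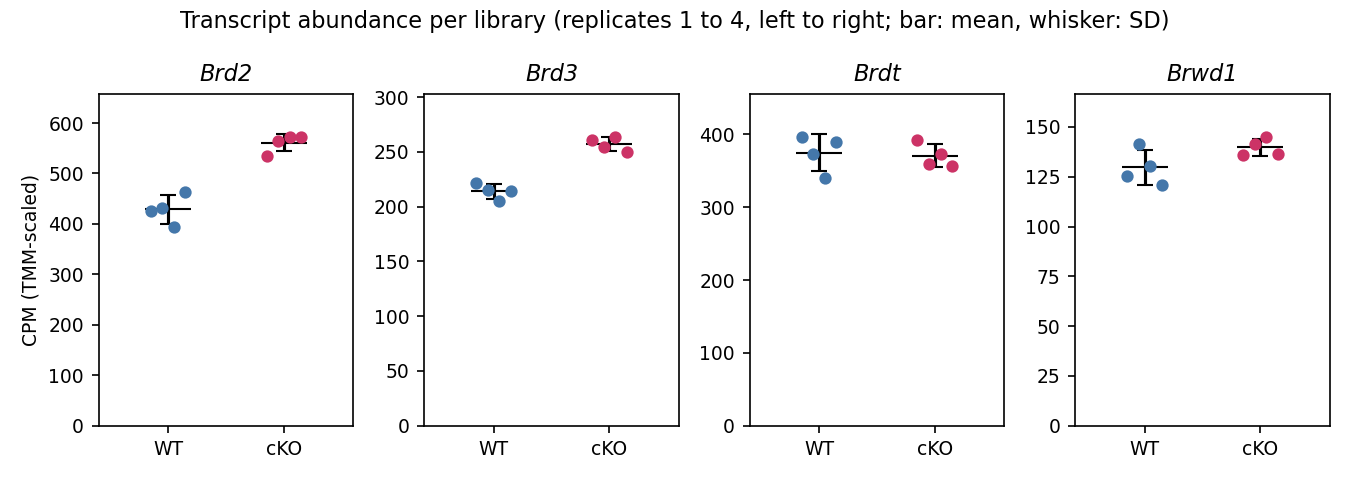
CPM scaled by TMM library sizes (y axis, from 0) of each member in the 4 *Arid1a* WT and 4 *Arid1a* cKO libraries, with the mean as a bar and the SD as a whisker. The *Arid1a* cKO points lie above all *Arid1a* WT points for *Brd2* (561 against 429 CPM) and *Brd3* (257 against 214 CPM) and overlap with them for *Brdt* and *Brwd1*.

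**Figure D2:**
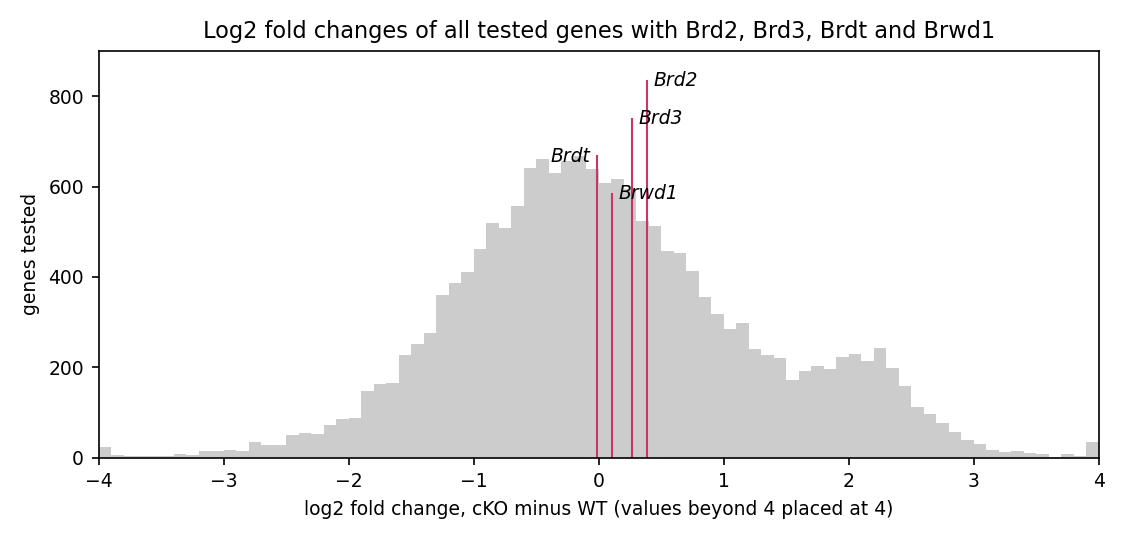
Log2 fold change (x axis, *Arid1a* cKO minus *Arid1a* WT) against the number of genes (y axis) for all 17643 genes tested, with lines at the members, whose heights carry no value. All 4 members lie between -0.02 and 0.39, near the centre of the distribution.

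The members were compared with each other in TPM, which is divided by transcript length. In *Arid1a* WT spermatocytes *Brdt* (239.6 ± 14.7 TPM) and *Brd2* (232 ± 7.59 TPM) stood first and did not differ beyond their spread, followed by *Brd3* (111 ± 3.18 TPM) and *Brwd1* (52.9 ± 7.34 TPM). Their ranks among all listed genes were 637, 661, 1697 and 3361. In *Arid1a* cKO spermatocytes *Brd2* came first at 271 ± 11.5 TPM, then *Brdt* at 244 ± 9.51 TPM, *Brd3* at 158 ± 7.15 TPM and *Brwd1* at 60.8 ± 7.41 TPM. *Brd2* was above *Brdt* in 3 of 4 *Arid1a* cKO libraries, with *Brd2* to *Brdt* ratios of 0.998, 1.15, 1.12 and 1.17, and in 2 of 4 *Arid1a* WT libraries, with ratios of 0.894, 1.01, 1.03 and 0.955. TPM of the listed genes summed to 780735–811443 in *Arid1a* WT and 880901–886412 in *Arid1a* cKO libraries, so TPM levels are not on a common total between genotypes, whereas shares within a library are free of it.

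As shares of the summed *Brd2*, *Brd3* and *Brdt* TPM, *Brd3* gained and *Brdt* lost. The *Brd3* share was 19.2%, 19.4%, 19.6% and 18.1% in *Arid1a* WT (19.1 ± 0.648) and 23.4%, 23.5%, 24.1% and 22.7% in *Arid1a* cKO (23.4 ± 0.566), a difference of 4.35 percentage points with no overlap. The *Brdt* share was 42.7%, 40.1%, 39.6% and 41.9% in *Arid1a* WT (41.1 ± 1.43) and 38.3%, 35.6%, 35.8% and 35.7% in *Arid1a* cKO (36.3 ± 1.33), a difference of -4.75 points, again with no overlap. The testis-specific BET gene therefore made up less of the message of these 3 genes in every *Arid1a* cKO library than in any *Arid1a* WT library. Its own TPM was 239.6 ± 14.7 in *Arid1a* WT and 244 ± 9.51 in *Arid1a* cKO, on totals that differ between genotypes. On rescaled TPM its log2 fold change was -0.12 (limma, adjusted p = 0.0967), so the direction of its own level depended on the scaling. The summed TPM of these genes went from 583 ± 18.9 to 673 ± 16.6, on totals that differ between genotypes. The *Brd2* share was 38.1%, 40.5%, 40.8% and 40.0% in *Arid1a* WT and 38.2%, 41.0%, 40.2% and 41.6% in *Arid1a* cKO, and its difference of 0.400 points was smaller than the SD within either group (1.19 and 1.47) and turned to -0.173 without *Arid1a* WT replicate 1 and -0.0627 without *Arid1a* cKO replicate 4. The *Brd3* to *Brdt* ratio went from 0.465 ± 0.0284 to 0.645 ± 0.0270. Shares were described without a test. In shares of counts, which are not divided by length, *Brd2* gained 5.07 points and *Brd3* 0.581 points.

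**Figure D3:**
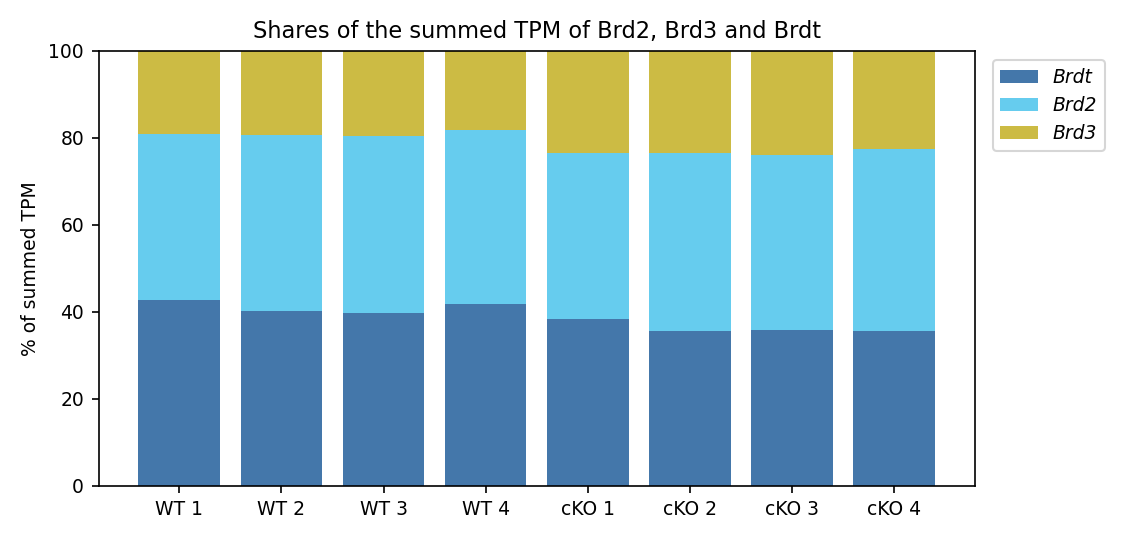
Share of *Brdt*, *Brd2* and *Brd3* in their summed TPM (y axis, percent) in each of the 8 libraries (x axis). On average *Brd3* went from 19.1% to 23.4% and *Brdt* from 41.1% to 36.3%, while *Brd2* was at 39.9% and 40.3%.

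The paralogs of *Brwd1* moved in opposite directions. *Phip* had 45.6, 45.4, 48.4 and 33.9 CPM in *Arid1a* WT and 20.3, 20.2, 19.3 and 21.3 CPM in *Arid1a* cKO, a log2 fold change of -1.10 ± 0.10 (edgeR, adjusted p = 8.97e-08). *Brwd3*, on the X chromosome, had 9.40, 11.1, 10.6 and 9.51 CPM in *Arid1a* WT and 26.3, 28.2, 28.2 and 24.2 CPM in *Arid1a* cKO, a log2 fold change of 1.40 ± 0.08 (adjusted p = 5.67e-10). Per length, *Brwd1* was the most abundant of the 3 in both genotypes, since *Phip* went from 9.43 to 3.69 TPM and *Brwd3* from 1.98 to 5.54 TPM.

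The mean length of the transcripts used by each gene was followed next. For a gene in a library, the estimated count divided by TPM is proportional to that length, and it was centred in each library on the median of 12780 genes with 20 or more counts in every library. By limma, 2 members used shorter transcripts in *Arid1a* cKO (*Brd3* and *Brdt*), 1 used longer transcripts (*Brd2*) and *Brwd1* did not pass. Over all these genes 53.1% were called, 42.5% longer and 10.6% shorter, and 51.3% had groups that did not overlap. The scale mattered for the split, since 3.55% were called longer and 13.5% shorter when libraries were scaled on 388 genes with 1 annotated transcript. Approximate lengths in bases below use that second scale, on which 98.0% of the values of those 388 genes lay within 10% of their annotated length.

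*Brd3* had the largest change of length among the members. Its mean transcript length was 2847, 2917, 2966 and 2922 bases in *Arid1a* WT (2913 ± 48.9) and 2259, 2261, 2173 and 2268 bases in *Arid1a* cKO (2240.4 ± 44.9). The groups were far apart relative to their spread, and the change exceeded 90.9% of genes in size. Centred on all genes, the log2 difference was -0.31 ± 0.02 (SE), or -19.3% (limma, adjusted p = 6.92e-05; exact permutation test, p = 0.0286, the smallest that 70 assignments allow). It was -0.38 on the scale of genes with 1 transcript, which the bases use (adjusted p = 2.5e-05), and adjusted p over the alternatives ranged from 2.5e-05 to 0.00745. The annotation (GENCODE M21) gives *Brd3* 7 protein-coding transcripts, of which 3 are long (5272, 5289 and 5419 bases), 3 are of 2221, 2316 and 2791 bases and 1 is of 437 bases. It also lists processed transcripts of 331, 563 and 2893 bases. Whether the authors quantified reads against this same set is not given in the sources used here. The deposited values are sums per gene, so which of these transcripts changed was not measured.

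*Brdt* transcripts were also shorter on average, although the *Brdt* level did not pass the test. The lengths were 2298, 2441, 2434 and 2300.5 bases in *Arid1a* WT (2368 ± 79.7) and 2079, 2111, 2072 and 2066 bases in *Arid1a* cKO (2082 ± 20.3), without overlap. Centred on all genes, the log2 difference was -0.12 ± 0.03 (SE), or -7.68% (limma, adjusted p = 0.00824; exact permutation test, p = 0.0286). On the scale of genes with 1 transcript, which the bases use, it was -0.18 (adjusted p = 0.00291), and adjusted p over the alternatives ranged from 0.00291 to 0.025. *Brdt* has 2 protein-coding transcripts in the annotation, of 4745 and 1607 bases, and the means in both genotypes lay between them. It also has processed transcripts of 1568 and 369 bases, and which transcripts changed was not measured.

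*Brd2* lengths were 2761, 2793, 2738 and 2863 bases in *Arid1a* WT and 2838, 2872, 2828 and 2831 bases in *Arid1a* cKO, which overlap in bases. Centred on all genes, the log2 difference was 0.10 ± 0.01 (SE; limma, adjusted p = 0.0012), and on the scale of genes with 1 transcript it was 0.03 (adjusted p = 0.285, the highest over the alternatives), so the call rested on the centring. *Brwd1* lengths were 3861, 3538, 3686 and 3831 bases in *Arid1a* WT and 3023, 3836, 2926 and 2979 bases in *Arid1a* cKO. *Arid1a* cKO replicate 2 lay within the *Arid1a* WT range and the other 3 lay below it. Centred on all genes, the log2 difference was -0.16 ± 0.09 (SE; limma, adjusted p = 0.175), and without that library it was -0.26 (adjusted p = 0.00121). With all libraries on the scale of genes with 1 transcript it was -0.23 (adjusted p = 0.152). The same library had the lowest *Brwd1* TPM of its group, at 50.8 against 60.6, 68.6 and 63.0, while its CPM of 142 was not apart. *Brwd1* has 7 protein-coding transcripts of 1130 to 9843 bases among 16 annotated transcripts.

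**Figure D4:**
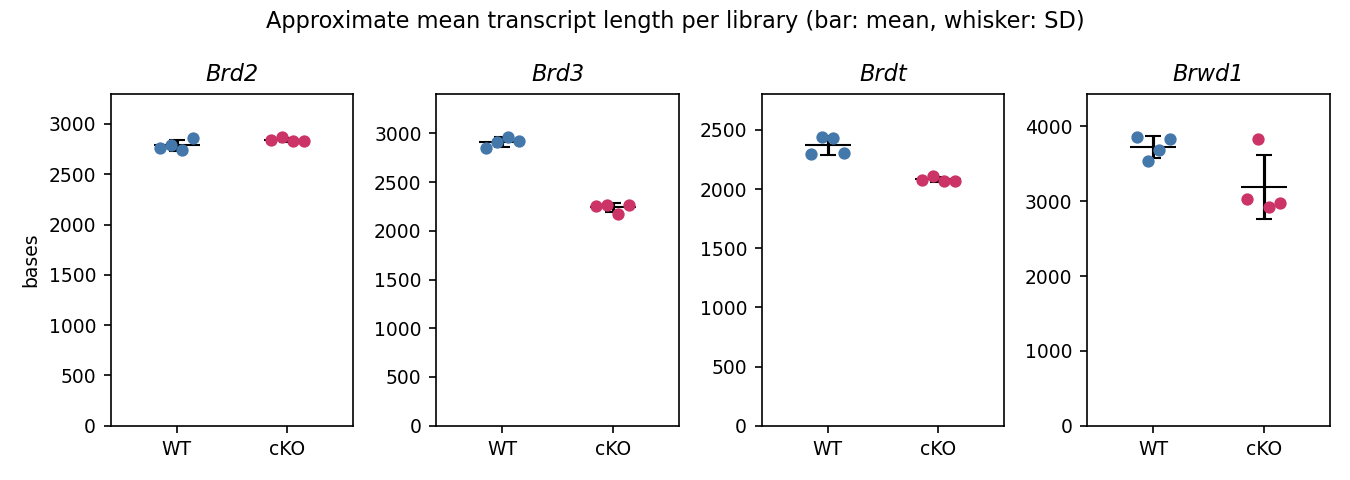
Approximate mean transcript length in bases (y axis, from 0, scaled on genes with 1 annotated transcript) of each member in the 4 *Arid1a* WT and 4 *Arid1a* cKO libraries, with the mean as a bar and the SD as a whisker. *Brd3* went from 2913 to 2240.4 bases and *Brdt* from 2368 to 2082 bases without overlap, while 1 *Arid1a* cKO library of *Brwd1* stands at 3836 bases.

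The wider family was followed through 35 other genes that encode bromodomain proteins, all of which were tested. Of these, 12 were higher, 16 lower and 7 not called in *Arid1a* cKO, and 80% called stands beside 74% of all genes. Their median log2 fold change was -0.10, against -0.02 for all genes. The largest rises were in *Kat2b*, an acetyltransferase (17.9 ± 0.937 to 79.0 ± 6.37 CPM, log2 fold change 2.15), *Trim66*, a TRIM reader of chromatin (13.5 ± 1.20 to 53.1 ± 1.10 CPM, 1.97), and *Atad2*, an AAA ATPase (35.0 ± 1.01 to 109 ± 4.47 CPM, 1.65). The largest falls were in *Baz1a*, a subunit of an ISWI remodeler (558 ± 35.3 to 111 ± 4.11 CPM, -2.33), *Brd8*, a subunit of the NuA4 acetyltransferase complex (184 ± 26.0 to 54.3 ± 0.670 CPM, -1.76), and *Zmynd8*, a reader of modified histones (68.5 ± 12.2 to 24.95 ± 0.506 CPM, -1.46). *Brd2* and *Brd3* lay in the upper part of this family, yet both moved less than any of these 6 genes.

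**Figure D5:**
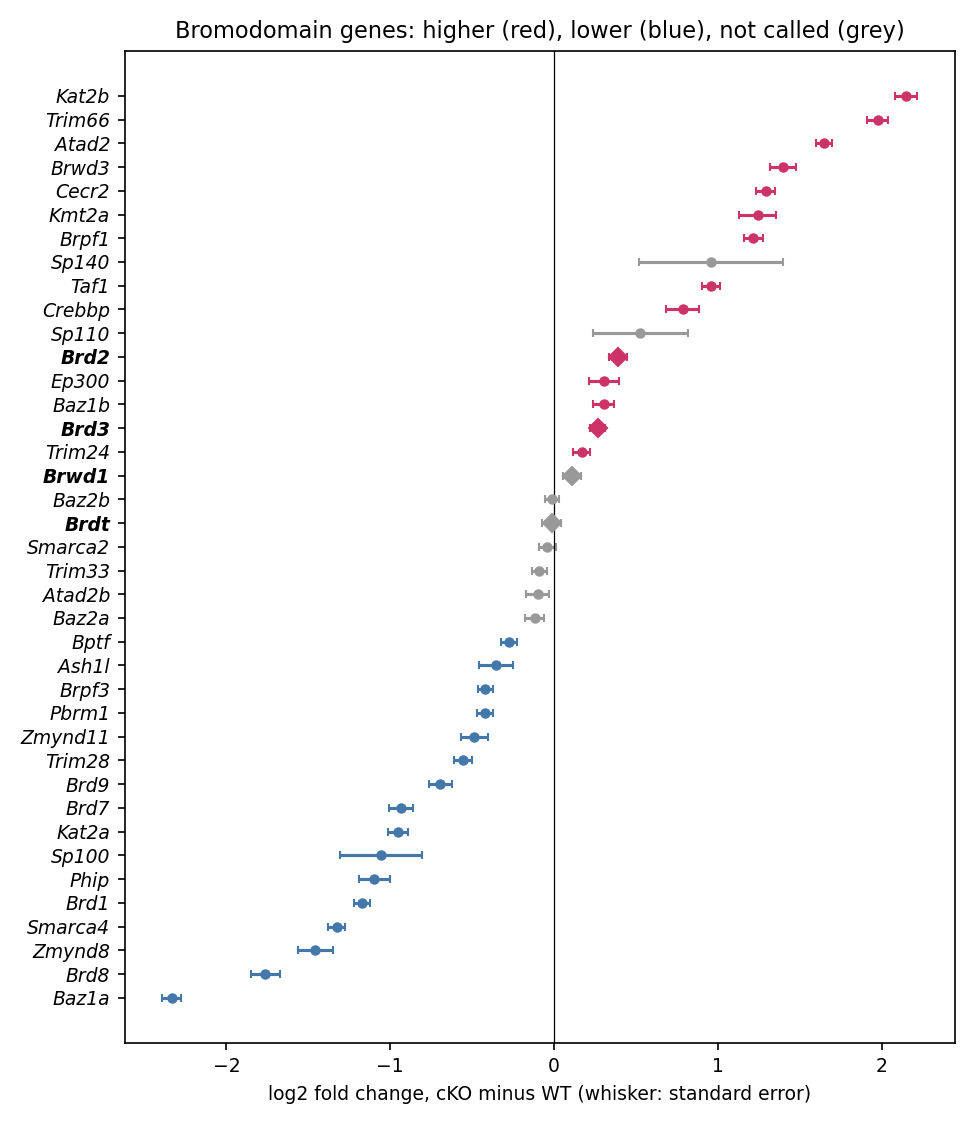
Log2 fold change (x axis, *Arid1a* cKO minus *Arid1a* WT, whiskers ± SE) of the 4 members (diamonds, bold) and 35 other bromodomain genes (circles), ordered by value, with called genes in red (higher) or blue (lower). The family runs from -2.33 for *Baz1a* to 2.15 for *Kat2b*, and the members lie between -0.02 and 0.39.

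BET proteins act at the release of paused RNA polymerase, and 24 genes of this step were examined. In *Arid1a* cKO 8 were higher, 14 lower and 2 not called, so 91.7% were called against 74% of all genes, and the median was -0.32 against -0.02. Only 5 were called higher on the rescaled TPM. Of P-TEFb, which frees the polymerase, the kinase gene *Cdk9* fell from 79.2 ± 12.9 to 22.5 ± 0.981 CPM (log2 fold change -1.82), while of its cyclin genes *Ccnt1* rose from 28.8 ± 5.06 to 46.5 ± 1.29 CPM (0.69) and *Ccnt2* fell (-0.47). Of its inhibitors, *Hexim1* fell from 26.8 ± 1.84 to 7.00 ± 0.583 CPM (-1.93) and *Hexim2* rose (0.46). *Nelfa*, a subunit of the pausing factor NELF, fell from 64.1 ± 3.04 to 27.3 ± 1.02 CPM (-1.23). Of the super elongation complex, *Ell2* rose from 32.3 ± 1.93 to 154 ± 3.24 CPM (2.25) and *Mllt3* from 5.57 ± 0.450 to 15.3 ± 0.363 CPM (1.46). In the same complex *Aff4* (0.66) also rose, *Ell* (-0.83) and *Aff1* (-0.40) fell, and *Mllt1* (-0.12) was not called. *Ell3* rose too (0.97), but it was scarcely expressed, with an average log2 CPM below 1. Genes of P-TEFb, of its inhibitors and of this complex thus moved in both directions, and those of them beyond the largest changes of the list were named after their values had been seen.

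Genes for the setting and removal of acetyl marks were read from a pair of lists, the first of which holds acetyltransferases and other subunits of their complexes. Of its 17 genes, 6 were higher, 10 lower and 1 not called, so 94.1% were called against 74% of all genes, and the median was -0.33. Besides *Kat2b*, the largest rises were in *Ing3*, a NuA4 subunit (19.5 ± 1.14 to 58.6 ± 2.23 CPM, log2 fold change 1.59), and *Hat1*, which acetylates newly made histones (34.0 ± 2.10 to 90.7 ± 3.75 CPM, 1.42). The largest falls were in *Ing4* (20.6 ± 2.01 to 5.32 ± 0.327 CPM, -1.95), *Naa40*, which acetylates histone amino termini (142 ± 5.88 to 37.5 ± 1.61 CPM, -1.92), and *Trrap*, the scaffold of several acetyltransferase complexes (219.7 ± 35.4 to 61.5 ± 6.12 CPM, -1.84). Of 15 deacetylase genes, 7 were higher, 5 lower and 3 not called, so 80% were called, near the 74% of all genes, and the median was -0.17. *Hdac9* (2.83 ± 0.431 to 11.2 ± 0.562 CPM, 1.98), *Hdac11* (18.6 ± 2.08 to 60.2 ± 2.69 CPM, 1.70) and *Hdac5* (21.3 ± 1.30 to 57.1 ± 2.28 CPM, 1.42) rose. The NAD-dependent deacetylase genes *Sirt7* (13.2 ± 0.568 to 5.89 ± 0.514 CPM, -1.16), *Sirt2* (154 ± 7.93 to 78.4 ± 0.779 CPM, -0.97) and *Sirt1* (82.7 ± 5.05 to 42.3 ± 1.85 CPM, -0.97) fell. Under the rescaled TPM the deacetylase counts were 4 higher and 9 lower.

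For the CUL4-DDB1 ligases in which BRWD proteins act, 18 genes were examined, and 4 were higher, 10 lower and 4 not called, so 77.8% were called, near the 74% of all genes, and the median was -0.27. The cullin genes *Cul4a*, autosomal, and *Cul4b*, X-linked, went in opposite directions, *Cul4a* from 225 ± 9.02 to 92.6 ± 0.998 CPM (log2 fold change -1.28) and *Cul4b* from 46.4 ± 0.361 to 205 ± 8.14 CPM (2.15). Among substrate receptors *Dcaf1* (94.0 ± 2.24 to 222 ± 8.39 CPM, 1.24) and *Dcaf5* (136 ± 6.56 to 187 ± 4.29 CPM, 0.46, with no call on rescaled TPM, 0.15, adjusted p = 0.143) rose, and *Ambra1* (129 ± 10.4 to 53.0 ± 1.14 CPM, -1.29) and *Dcaf11* (78.5 ± 3.73 to 32.5 ± 1.82 CPM, -1.27) fell. All genes given with CPM values from these lists had adjusted p-values of 1.23e-05 or less in edgeR. *Kat2a*, *Kat2b*, *Crebbp* and *Ep300* stood in both the bromodomain and the acetyltransferase list.

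The genes whose levels over the 8 libraries lay closest to each member were found by the distance between mean-centred log2 CPM profiles among 12997 genes. For *Brd2* they were *Ubap2l*, *Spag8* and *Ropn1l*, at 0.0913, 0.0952 and 0.0983. For *Brd3* they were *Ckap4*, *Mxd1* and *Arl6ip6*, at 0.0677, 0.0701 and 0.0702. *Dnajc21*, *Mapk6* and *Poc1a* lay closest to *Brdt*, at 0.0627, 0.0658 and 0.0723, and *Plagl2*, *Nol4l* and *Tsc22d2* to *Brwd1*, at 0.0632, 0.0667 and 0.0858. All 8 libraries share the split by genotype, so these distances reflect the size of the genotype difference as well as the spread within groups.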

How the data were processed

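RNA-seq libraries of pachytene spermatocytes, 4 of *Arid1a* WT and 4 of *Arid1a* cKO, were sequenced as paired 50-base reads. The authors quantified reads with Salmon, summed transcripts to Entrez genes with tximport on the mm10 known-gene annotation, and deposited estimated counts, not scaled for depth. The authors also deposited TPM, scaled by Salmon to the whole library. Tool versions are not given in the sources used here. Their table of log2 fold changes and p-values from DESeq2 was not used.

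The members and all lists were chosen with earlier results of these data known. Of 21058 genes, 21036 matched a RefSeq record (GRCm38.p6). Estimated counts were rounded, and the 17643 genes whose counts summed to 10 or more were put through the quasi-likelihood test of edgeR 4.0.16 (R 4.3.3, TMM factors, genotype alone in the model). P-values were adjusted over all of them by Benjamini and Hochberg, and 0.05 was the limit for a call. The SE was taken from the log2 fold change and the square root of its F. Log2 CPM had a prior count of 2. Transcript lengths were tested over 12780 genes with limma 3.58.1. Exact permutation tests were two-sided. The main edgeR fit and the limma fit of lengths were tested on simulated data, and the other steps were not. Libraries held 15850961 to 22044507 counts, and nothing states that replicates came from separate purifications, so p-values measure the spread between these samples, which may be technical.

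From each list the text names the 3 called genes with the largest rise and the 3 with the largest fall at an average log2 CPM of 1 or more, besides the members, *Arid1a*, *Phip* and *Brwd3*. *H2-DMa*, *Id4*, *Piwil1* and 7 further pause-release genes were added after their values were seen. The bromodomain list as first drawn up held a further gene, which is not reported here and is in none of the counts for that list. The alternatives were DESeq2 1.42.0, other size factors or none, other count filters, length offsets, limma on log2(TPM + 1) and log2(TPM + 0.1), a replicate block, leaving out each library, other length scales and shares of counts. Rescaled TPM and the scale of genes with 1 transcript were chosen after seeing the data.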

Additional observations from a re-analysis of the deposited data

Results flagged for a closer look

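In 30 groups of 4 libraries, the gap between the highest or lowest library and its neighbour was divided by the range of the group, and 3 groups exceeded the 95% critical value of Dixon's test, where about 1.5 would by chance. All 3 were of *Arid1a* cKO. Ratios for transcript length were taken on log2 relative lengths centred on all genes, not on bases. For *Brd3* the ratio was 0.958, because replicate 3 (0.0026) was below the others (0.0604, 0.0611 and 0.0587). In bases, replicate 3 was at 2173 against 2259, 2261 and 2268. For the relative transcript length of *Brwd1* the ratio was 0.875, because replicate 2 (0.824) was above the others (0.481, 0.432 and 0.452). In bases, replicate 2 was at 3836 against 3023, 2926 and 2979. For the *Brdt* share of the summed *Brd2*, *Brd3* and *Brdt* TPM the ratio was 0.93, because replicate 1 (38.3%) was above the others (35.6%, 35.8% and 35.7%).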

How the results depend on the processing

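*Brd3* kept its direction and its call under every alternative run, and *Brd2* under all but the rescaled TPM, where its log2 fold change was 0.07 (limma, adjusted p = 0.247). *Brdt* was 0.01 with DESeq2, with DESeq2 size factors and with filterByExpr, 0.02 with TMM from autosomal genes, 0.03 on log2(TPM + 1) and log2(TPM + 0.1), 0.10 with length offsets and -0.11 without TMM (adjusted p = 0.0177). *Brwd1* passed with DESeq2, its size factors and autosomal TMM (0.14 in each), filterByExpr (0.13) and length offsets (0.27), with adjusted p of 0.0197 to 0.0411. Deacetylase genes called higher numbered 4 instead of 7 without TMM and on log2(TPM + 1), log2(TPM + 0.1) and rescaled TPM, which also gave 9 lower instead of 5 and 5 pause-release genes higher instead of 8. *Dcaf5* was 0.15 on rescaled TPM (adjusted p = 0.143). The *Brd2* length change was 0.03 on the scale of genes with 1 transcript, where 454 genes were called longer and 1731 shorter against 5431 and 1351. Shares of counts moved the difference to 5.07 points for *Brd2* and 0.581 for *Brd3*. The cause of these shifts was not tested. The median of all genes was -0.13 on rescaled TPM, -0.05 on log2(TPM + 1) and -0.02 in edgeR, and 38.9%, 45.4% and 49.3% of calls were higher.

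Leaving out each library in turn gave 0.35 to 0.44 for *Brd2*, 0.25 to 0.28 for *Brd3*, -0.06 to 0.02 for *Brdt* and 0.09 to 0.15 for *Brwd1*, which passed without *Arid1a* WT replicate 2 (0.15). Over all genes, 6152 to 6516 were higher and 6379 to 6649 lower. Length changes were 0.09 to 0.11 for *Brd2*, -0.32 to -0.29 for *Brd3*, -0.13 to -0.10 for *Brdt* and -0.26 to -0.12 for *Brwd1*, with -0.26 without *Arid1a* cKO replicate 2 (adjusted p = 0.00121). The *Brd2* share ranged from -0.173 to 1.07 points (-0.173 without *Arid1a* WT replicate 1, -0.0627 without *Arid1a* cKO replicate 4), *Brd3* from 4.03 to 4.59 and *Brdt* from -5.41 to -4.22.

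Deviations from the group means correlated weakly between same-numbered libraries, at 0.162, 0.0125, 0.0852 and -0.137 across 12997 genes. The same-numbered library was the best match for *Arid1a* WT replicate 1 and *Arid1a* cKO replicates 2 and 3, and not for the others. Such correlations cannot show whether same-numbered libraries were prepared together. With the replicate block 13100 genes were called against 13048, and the members were at 0.39, 0.27, -0.01 and 0.11 in the order *Brd2*, *Brd3*, *Brdt* and *Brwd1*, with no call changed.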
